A study of Mus musculus with 6 samples.

Results

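Ribosome biogenesis genes encode the factors that make ribosomes, and 42 of them were followed here in mouse tracheal epithelium before and after injury: the transcription factor Myc, subunits of RNA polymerase I, and nucleolar processing and assembly factors. The members form a list of gene symbols with known functions in the pathway, and the rule that picks their probe sets uses no measured value, although the list was drawn up with earlier results of these data known. A gene counted as measured where the array carried a probe set, a group of short probes for a transcript, whose annotation gave exactly 1 symbol. By this rule 41 of the 42 members were measured, with 86 probe sets between them, out of 18193 genes and 34945 probe sets. Mrto4 shares its probe set with other symbols and was not measured here. By RefSeq positions the 42 members lie on 16 chromosomes, with at most 6 on any chromosome.

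The epithelium came from the tracheas of adult C57Bl/6 mice. The control group held 3 samples from mice without injury, and the 48 hpi (hours post injury) group held 3 samples from mice that had breathed 500 ppm SO2 for 4 h, a gas that kills the luminal cells and leaves the basal cells to rebuild the epithelium. Each sample pooled 4 tracheas, and in both groups the epithelium was peeled off after protease digestion and depleted of CD45+ leukocytes. RNA was hybridized to Affymetrix mouse arrays, and the levels are log2 values after robust multi-chip analysis (RMA). The pools are described as biological replicates, and pooling hides the spread between single animals.

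Ribosome production starts in the nucleolus, where RNA polymerase I transcribes a long precursor RNA. Small nucleolar ribonucleoproteins (snoRNPs) modify this precursor, processing complexes cut it, and assembly factors join the pieces with ribosomal proteins into the small and the large subunit. Cells that grow and divide need many ribosomes, and Myc is known to activate many genes of this pathway by binding E-boxes, short DNA elements in their promoters.

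Most genes of the pathway rose together in the repairing epithelium. Of the 41 measured members, 38 were called higher at 48 hpi (limma, Benjamini-Hochberg adjusted p below 0.05 over all genes), against 19.4% of all genes. None was called lower (0 of 41 in limma), against 17.5% of all genes. The 3 that passed in neither direction were Myc, Polr1a and Imp3. The rise was at least 1 on the log2 scale, a doubling, for 26 members, which 5.10% of all genes reached. In 38 members every 48 hpi pool lay above every control pool, as it did in 25.4% of all genes. The median log2 change was 1.18 over the members and -0.02 over all genes, and 40 of the 41 values were positive. Among the members called higher the log2 change ran from 0.40 to 2.02, or from 1.32-fold to a measured 4.06-fold, with standard errors (SE) from 0.086 to 0.225 and adjusted p-values from 5.43e-05 to 0.0106. In bulk RNA such as this, more or fewer cells of a type and more or less RNA per cell cannot be told apart.

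**Figure D1:**
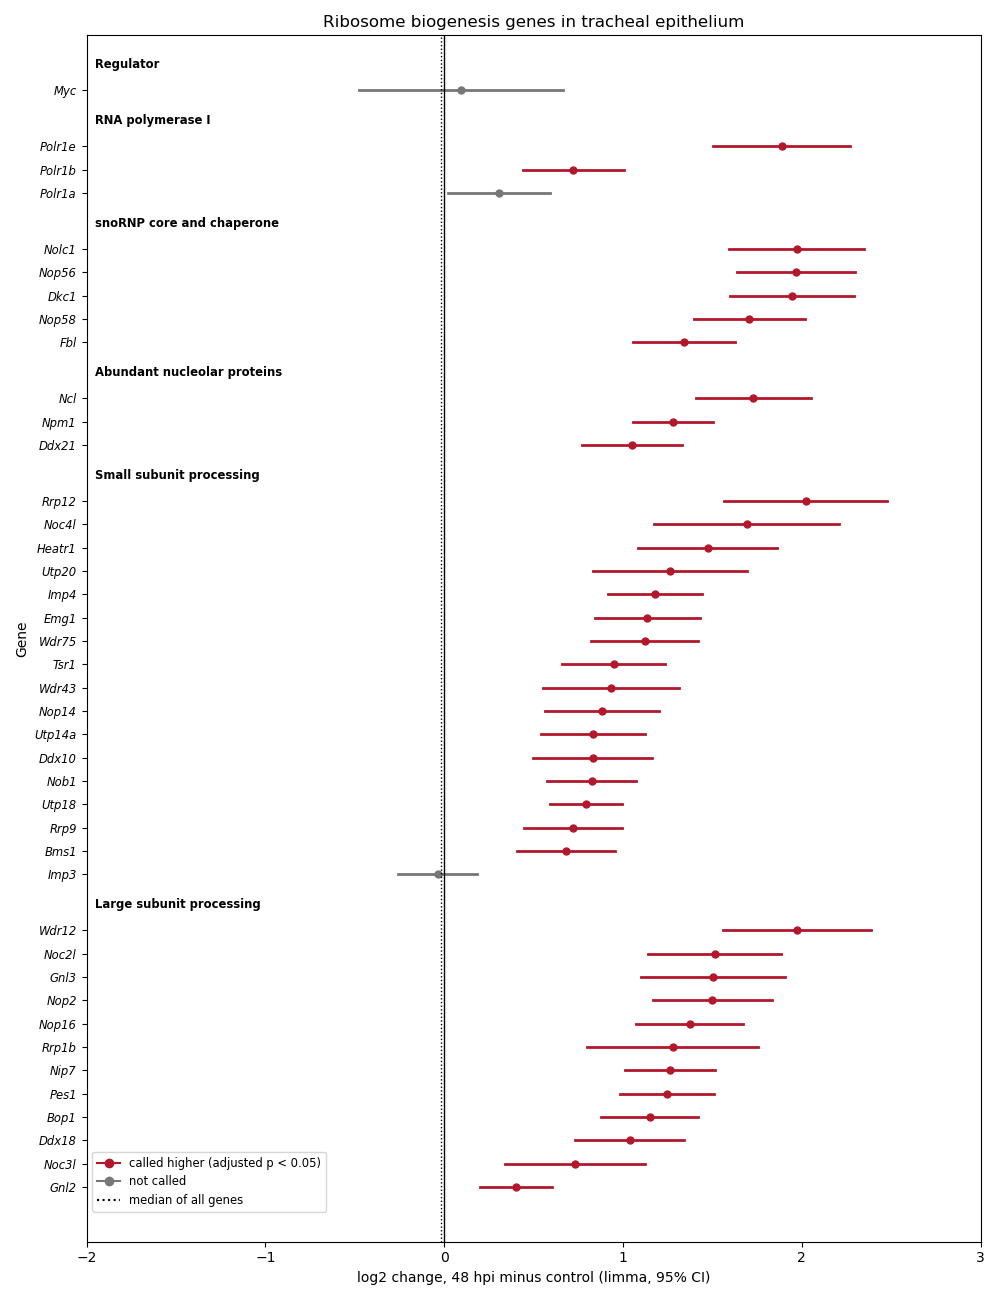
Log2 change (48 hpi minus control) of the 41 measured ribosome biogenesis genes by role, with the 95% confidence interval from limma (n = 3 pools per group). Red genes were called higher and grey genes were not called; the dotted line is the median of all genes, -0.02. Every interval of a red gene lies to the right of 0, and grey are Myc, Polr1a and Imp3.

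The third pool at 48 hpi stood apart from the others in its member levels. Over all 45101 probe sets its correlation with the other 48 hpi pools was 0.990 and 0.992, whereas these correlated with each other at 0.996. Controls correlated among themselves at 0.992 to 0.996, so their lowest value was close to those of the third pool. The median difference of the members from their control means was 0.98, 1.04 and 1.41 on the log2 scale in the 48 hpi pools, so the third pool carried the largest rise. It gave the highest 48 hpi value in 37 of the 41 members, against 36.7% of all genes tested. Among the 38 members called higher it did so in 36, against 74.7% of all genes called higher. Without it, the 38 members still called higher had a median log2 change of 1.05, against 1.25 with it. Control pools differed far less, with member medians of 0.05, 0.01 and -0.05 around their own mean.

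The arrays carried the markers of the labelled tissue. All 6 epithelial markers were above background, taken as the level that 95% of 79 probe sets for olfactory and related receptors stayed under, which was 4.94 in control and 4.81 at 48 hpi. Of the listed markers of other tissues, 4 of 12 for leukocytes, 3 of 9 for fibroblasts and 2 of 7 for endothelium exceeded this level in at least 1 group. Their mean log2 levels per pool were 4.63 to 4.72 in control and 4.60 to 4.68 at 48 hpi for leukocytes, 4.67 to 4.77 and 4.60 to 5.20 for fibroblasts, and 3.97 to 4.02 and 3.92 to 4.02 for endothelium. These means hide single markers. The fibroblast matrix gene Dcn fell by 1.85 and the macrophage receptor gene Csf1r by 0.84, both from levels above background, and the leukocyte gene Coro1a rose by 0.35 without reaching background. Dcn went against its list, in which 8 of 9 fibroblast markers had positive changes, with a median of 0.14. The fibroblast gene Col3a1, named after its values were seen, was not called but reached 6.66 in the second 48 hpi pool. Markers of cycling rose with the members, and those of epithelial cell types fell or went both ways. All 7 measured proliferation markers rose, with mean levels of 7.58 to 7.67 in the control pools and 10.4 to 10.7 at 48 hpi, while 9 of 10 ciliated and 6 of 8 secretory markers fell. In pool order, mean levels at 48 hpi were 6.23, 6.29 and 5.61 for ciliated and 13.11, 13.18 and 12.11 for secretory markers. For proliferation they were 10.52, 10.45 and 10.74. The third pool, with the largest member rise, was thus lowest in ciliated and secretory and highest in proliferation markers. Of 6 basal cell markers 2 rose (Krt14 by 3.18, Krt5 by 0.69) and 2 fell (Ngfr by 0.66, Pdpn by 0.35). The part of these cell types and of cycling in the change of the ribosome biogenesis genes was not tested.

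Promoter sequences were examined because the list pairs Myc with genes that moved together. RefSeq promoters of GRCm38.p6, from 250 bases before to 50 bases after each start, were given for 36 of the 42 members; Npm1, Myc, Fbl, Bop1, Rrp12 and Gnl2 had none. The E-box CACGTG, which reads the same on both strands, occurred in 7 of the 36 (19.4%): Imp4, Nop2, Pes1, Tsr1, Utp18, Utp20 and Wdr43. It occurred in 8.09% of all 27025 genes with a promoter, in 12.9% of the genes called higher, in 11.5% of the genes above background and in 17.3% of the 104 other biogenesis genes with a promoter. The related element CACGCG, searched on both strands, was found in 9 of the 36 (25.0%) and in 33.7% of the 104 other biogenesis genes. It was found in 10.5% of all genes with a promoter, in 19.4% of those above background and in 22.2% of those called higher. In 3 members the E-box lay before the start, and those stretches of 100 bases are shown 5′ to 3′ on the strand of the gene with the E-box in capitals. The E-box begins 60 bases before the start of Nop2 (chr6:125131776-125131875, plus strand), 121 before that of Imp4 (chr1:34439661-34439760, plus strand) and 20 before that of Utp18 (chr11:93885767-93885866, minus strand).
Nop2: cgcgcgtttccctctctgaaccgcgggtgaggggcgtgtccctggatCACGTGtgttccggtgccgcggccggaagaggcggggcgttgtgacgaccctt
Imp4: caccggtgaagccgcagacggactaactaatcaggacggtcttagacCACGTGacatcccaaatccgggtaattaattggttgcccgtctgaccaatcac
Utp18: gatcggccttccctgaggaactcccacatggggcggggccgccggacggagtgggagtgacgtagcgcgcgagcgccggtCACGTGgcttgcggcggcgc
The 3 genes rose by 1.50, 1.18 and 0.79 on the log2 scale, which spans the middle of the members' range. A match of letters is a description and does not show that a factor was bound.

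RNA polymerase I synthesizes the precursor RNA, and 2 of its 3 subunits on the list rose. Polr1e, which encodes the subunit known as PAF53, had log2 levels of 4.50, 4.48 and 4.63 in the control pools and 6.32, 6.13 and 6.82 at 48 hpi. The change was 1.89 (SE 0.17, adjusted p = 0.000134 in limma), from control levels within background, so its size is not known exactly. Polr1b, the second-largest subunit, went from 5.88, 5.69 and 5.69 to 6.42, 6.30 and 6.70, a change of 0.72 (SE 0.12, adjusted p = 0.00249 in limma). The groups did not overlap for either gene. Polr1a, the largest subunit, read 7.76, 7.55 and 7.40 in control and 7.72, 7.92 and 8.003 at 48 hpi. Here the first pool of each group crossed over, and the change of 0.31 (SE 0.12, 95% confidence interval 0.02 to 0.59) did not pass the test (adjusted p = 0.0871 in limma). Its other probe sets disagreed with the brightest: the next one in brightness rose by 0.63 (adjusted p = 0.00755 in limma over probe sets), and the one after it gave -0.29 and was not called. Of the 14 other RNA polymerase I subunits and initiation factors 9 rose and 0 fell, with a median of 0.47, led by Taf1d, a part of the selectivity factor SL1 (1.30), and Cd3eap, a polymerase subunit (1.09).

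The snoRNP proteins gave the highest median of any role group, 1.94 on the log2 scale, and all 5 rose. Nolc1, a chaperone that shuttles with snoRNPs, measured 6.61, 6.66 and 6.55 in control and 8.49, 8.28 and 8.97 at 48 hpi, a change of 1.97 (SE 0.16, adjusted p = 0.0001 in limma). Nop56, a core protein of the box C/D particles that guide RNA methylation, measured 8.15, 8.16 and 7.99 against 9.88, 9.93 and 10.40 and also changed by 1.97 (SE 0.14, adjusted p = 5.43e-05 in limma). Dkc1, the pseudouridine synthase of the box H/ACA particles, measured 8.32, 8.26 and 8.33 against 10.08, 10.05 and 10.61, a change of 1.94 (SE 0.15, adjusted p = 7.07e-05 in limma). For each of these genes every 48 hpi pool lay above every control pool. Nop58, the partner of Nop56, rose by 1.71 and Fbl, the methyltransferase fibrillarin, by 1.34. Among 13 further snoRNP proteins and assembly factors 11 rose and 0 fell, with a median of 0.90.

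The box H/ACA core did not move as a whole. Its proteins Nhp2 and Gar1 rose by 2.12 and 1.65, the largest changes among those further snoRNP proteins, next to 1.94 for Dkc1. Nop10, the remaining core protein, was singled out after its values were seen: it measured 11.27, 11.29 and 11.36 in control and 11.19, 11.32 and 11.51 at 48 hpi, a change of 0.04 (SE 0.10, 95% confidence interval -0.20 to 0.27) that was not called. The change of Nop10 was thus 2.09 smaller than that of Nhp2 and 1.91 smaller than that of Dkc1. As Nop10 was picked for its value, these differences are a description. An exact permutation test over the 6 arrays gave p = 0.1 for each. That is the smallest value it can reach, so it cannot decide.

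The abundant nucleolar proteins all rose. Ncl encodes nucleolin, which binds the precursor RNA and nucleolar chromatin, and measured 9.96, 9.95 and 9.77 in control and 11.49, 11.46 and 11.93 at 48 hpi. The change was 1.73 (SE 0.14, adjusted p = 8.28e-05 in limma). Npm1 encodes nucleophosmin, a nucleolar chaperone, and went from 11.27, 11.22 and 11.11 to 12.59, 12.35 and 12.49, a change of 1.28 (SE 0.10, adjusted p = 6.55e-05 in limma). Its highest 48 hpi value was in the first pool and not in the third. The RNA helicase gene Ddx21 went from 7.40, 7.34 and 7.24 to 8.29, 8.21 and 8.63, a change of 1.05 (SE 0.12, adjusted p = 0.000452 in limma). None of these 3 genes overlapped between the groups.

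**Figure D2:**
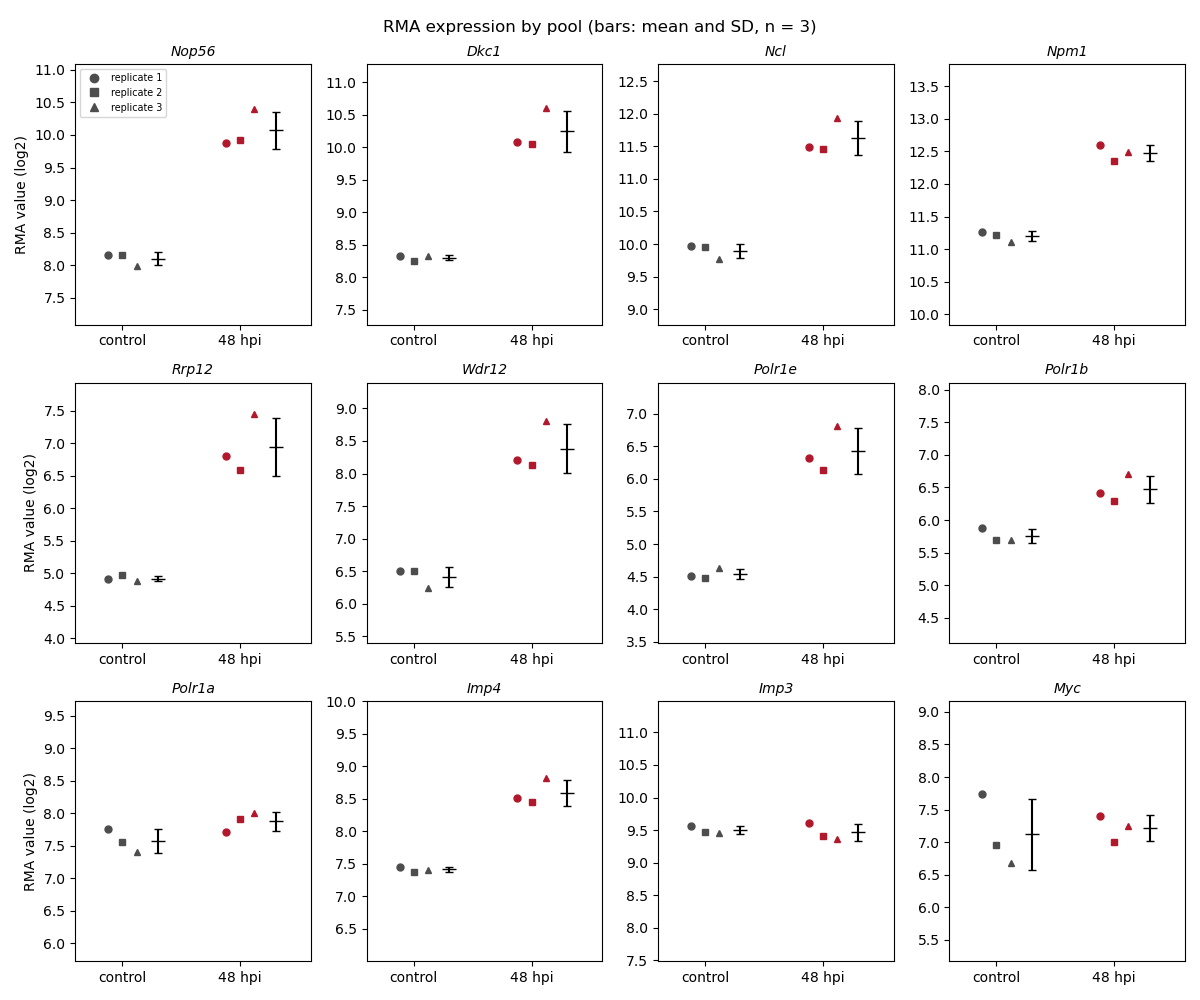
RMA levels (log2) of 12 ribosome biogenesis genes in each pool, with circles, squares and triangles for replicates 1, 2 and 3, and the mean and SD (n = 3) beside them; every panel spans the same number of log2 units. The groups are separate in 9 panels and overlap for Polr1a, Imp3 and Myc.

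Processing of the small subunit precursor was represented by 17 members, of which 16 rose, with a median of 0.93 over the 17. Rrp12, a HEAT-repeat protein of subunit maturation and export, had the largest measured change of the members. It measured 4.91, 4.97 and 4.88 in control and 6.80, 6.58 and 7.44 at 48 hpi, and the change was 2.02 (SE 0.20, adjusted p = 0.000211 in limma), from control levels within background, so its size is not known exactly. Noc4l, a partner of Nop14, went from 6.89, 6.58 and 6.57 to 7.995, 8.19 and 8.92, a change of 1.69 (SE 0.22, adjusted p = 0.000808 in limma). Heatr1, a part of the small subunit processome that also aids transcription of the precursor, went from 7.65, 7.64 and 7.72 to 8.92, 8.94 and 9.57, a change of 1.47 (SE 0.17, adjusted p = 0.000435 in limma). All 3 were highest in the third 48 hpi pool. The processome proteins Utp20, Wdr75, Wdr43, Nop14, Utp14a and Utp18 rose by 1.26, 1.12, 0.93, 0.89, 0.83 and 0.79. Rrp9, a protein of the U3 snoRNP, and Bms1, a GTPase of the processome, rose by 0.72 and 0.68. Emg1, a methyltransferase of the small subunit RNA, rose by 1.14, and the late factors Tsr1 and Nob1, the latter the endonuclease that makes the final cut, rose by 0.95 and 0.82. The helicase gene Ddx10 rose by 0.83.

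Imp3 was the small subunit member that was not called, as were 4 of 37 other small subunit factors listed. It encodes a protein that sits with Imp4 and Mphosph10 in a subcomplex of the processome, and it measured 9.57, 9.48 and 9.46 in control and 9.61, 9.41 and 9.37 at 48 hpi. The groups overlapped, and the change of -0.04 (SE 0.10, 95% confidence interval -0.26 to 0.18, adjusted p = 0.806 in limma) did not pass the test. Imp4 went from 7.46, 7.37 and 7.41 to 8.51, 8.45 and 8.82, a change of 1.18 with an interval of 0.92 to 1.44, above that of Imp3. Those values of Imp4 are from its brightest probe set, and its others changed by 0.46 and by an uncalled 0.13. Mphosph10, chosen after its values were seen, rose by 1.11. The change of Imp3 was 1.22 smaller than that of Imp4 and 1.15 smaller than that of Mphosph10, which is given as a description. The exact permutation test gave p = 0.1 here too, its smallest possible value, and cannot decide. Imp3 itself had a change of 0.045 when arrays were set to a common median and 0.31 when their hybridization controls were made equal. These shift every gene alike, so relative to the median of all genes it had to stay at -0.02. Repeated quantile normalization, which does not shift every gene alike, gave -0.16, or -0.13 relative to that median.

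All 12 measured members of large subunit processing rose, with a median of 1.27. Wdr12, which joins Pes1 and Bop1 in the PeBoW complex, measured 6.49, 6.50 and 6.24 in control and 8.21, 8.13 and 8.81 at 48 hpi, a change of 1.97 (SE 0.18, adjusted p = 0.000159 in limma). A dimmer called probe set of Wdr12 gave 0.91, and 1 not above background gave an uncalled 0.02. The Wdr12 partners Pes1 and Bop1 rose by 1.24 and 1.15. Noc2l went from 6.58, 6.37 and 6.56 to 7.77, 7.88 and 8.39, a change of 1.51 (SE 0.16, adjusted p = 0.000314 in limma), and its partner Noc3l rose by 0.73. Gnl3, the nucleolar GTPase nucleostemin known from stem and progenitor cells, went from 7.93, 7.83 and 7.62 to 9.12, 9.07 and 9.70, a change of 1.50 (SE 0.17, adjusted p = 0.000446 in limma). Here too the groups were apart and the third pool was highest. Nop2, a methyltransferase of the large subunit RNA, rose by 1.50, and the assembly factors Nop16, Rrp1b and Nip7 rose by 1.37, 1.28 and 1.26. The helicase gene Ddx18 rose by 1.04. Gnl2, a GTPase related to Gnl3, had the smallest rise of any called member, 0.40 (SE 0.09, adjusted p = 0.00744 in limma), from 8.57, 8.57 and 8.44 to 8.87, 8.91 and 9.00.

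Myc itself showed no change that passed the test. Its single probe set measured 7.73, 6.96 and 6.67 in control and 7.40, 7.00 and 7.24 at 48 hpi, so the 48 hpi pools lay inside the range of the controls. The change was 0.09 (SE 0.25, 95% confidence interval -0.48 to 0.67, adjusted p = 0.81 in limma), and its control pools had an SD of 0.55. With the first control pool left out the change was 0.40, and with the third left out it was -0.13, neither called. The interval thus includes a rise of Myc transcript of up to 0.67 and a fall of up to 0.48. Of 12 genes of the Myc network, 3 rose and 3 fell, shares not far from the 19.4% and 17.5% of all genes, so the count is no result about the network. Mxd3, a Max partner expressed in cycling cells, rose by 0.80 and Max, the partner that Myc needs to bind DNA, by 0.51. Mxi1 and Mxd4, which are Max partners as well, fell by 0.66 and 0.52.

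Single probe sets mostly gave the same direction as the gene. Of the 86 probe sets of the members, 66 were called higher, against 17.7% of all probe sets, and 1 was called lower, against 15.2%. Of the 74 above background in at least 1 group, 66 were higher, 0 lower and 8 not called. This filter admits probe sets above background at 48 hpi only, such as those of Polr1e, which favours rises. By the same filter on genes, 3387 of 12272 were called higher and 2873 lower. The 12 dimmer probe sets of the members held the lower call and 11 without a call. The lower call belonged to a dim probe set of Gnl2 with levels of 4.65, 4.78 and 4.73 in control and 4.45, 4.46 and 4.45 at 48 hpi, a change of -0.27 (adjusted p = 0.0391 in limma over probe sets), while the other probe sets of Gnl2 rose by 0.40 and 0.44. Among 29 members with several probe sets, all were higher in 15, and 13, Polr1a among them, had higher and uncalled ones. Counting probe sets above background alone, with the same limit of the filter, 18 of 23 members with several had all of them higher. Examples of disagreement above background were Imp4 (1.18, 0.46 and an uncalled 0.13), Noc2l (1.51 and an uncalled 0.28), Heatr1 (1.47 and an uncalled 0.38) and Ncl (4 higher, 1.39 to 1.83, and an uncalled 0.34). Called probe sets also differed in size, as in Wdr12 (1.97 and 0.91), Nolc1 (1.97, 1.80 and 0.90), Polr1e (1.89 and 1.30) and Noc4l (1.04 to 1.75). In Npm1 (1.28 and 1.80) and Ddx21 (1.05 and 1.80) the brightest gave the smaller change.

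**Figure D3:**
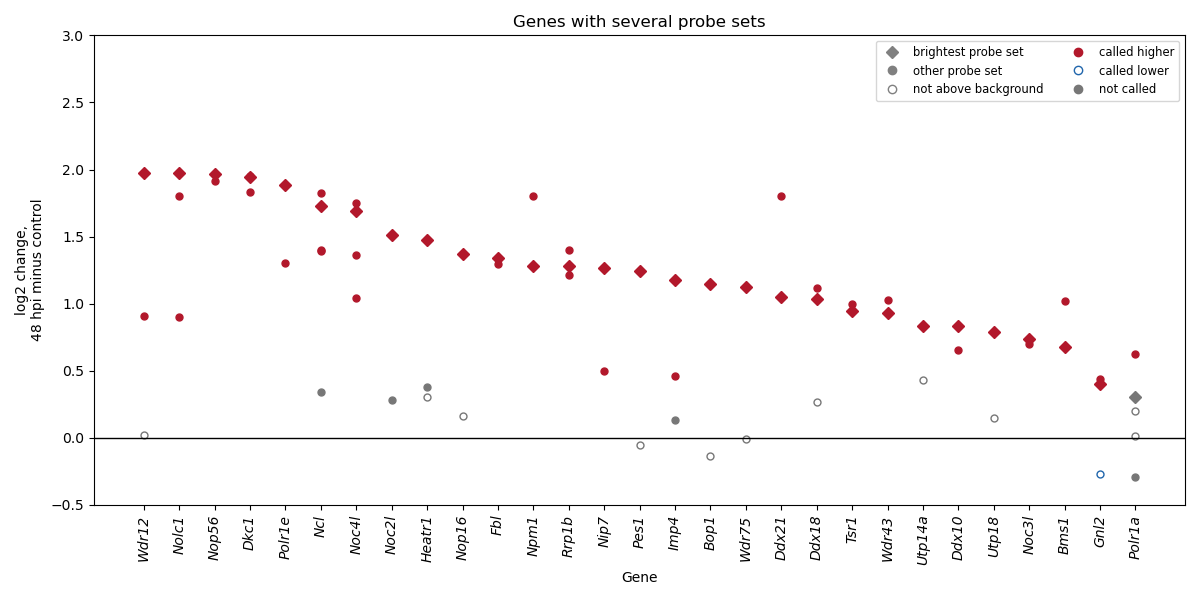
Log2 change (48 hpi minus control) of every probe set of the 29 members with several probe sets, in order of the change of the brightest (diamond). Open symbols were not above background in either group, and these hold the only lower call (blue, Gnl2) while every red symbol is filled.

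The rest of the pathway moved the same way, and ribosomal protein genes had a lower median. Of 121 further measured biogenesis genes 105 rose and 0 fell, with a median of 0.85, and 44 rose by at least 1. Among all genes, for this and the lists below, 19.4% rose, 17.5% fell and 5.10% rose by at least 1, with a median of -0.02. Small subunit factors rose in 33 of 37, with Bysl at 1.75 and Nol11 at 1.61, and large subunit factors in 36 of 41, with Lyar at 1.93 and Rrp15 at 1.83. All 16 genes of the RNA exosome and the nucleases that trim precursor RNA rose, with a median of 0.82, led by Dis3 (1.95) and Exosc8 (1.74), a catalytic and a core subunit of the exosome. Of 45 cytosolic ribosomal protein genes with probe sets of their own, 21 rose and 2 fell, with a median of 0.24, and 2 rose by at least 1. RNA polymerase III, which makes the small ribosomal RNA and transfer RNAs, gave 6 higher and 2 lower of 11. The share of falls is near the 17.5% of all genes, so the falls are no result about this list. Polr3k rose by 1.27 and Polr3g by 0.92, while Polr3d fell (-0.83), as did Maf1 (-0.39), a repressor of the polymerase. Of 12 genes of nucleolar stress and the p53 axis 2 rose, Rrp8 by 0.97 and Rpl11 by 0.25, and 1 fell, Bbc3, which encodes the cell death protein Puma (-0.58), at or below the 19.4% and 17.5% of all genes. These lists are described by counts and medians beside those of all genes, and differences between lists were not tested.

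**Figure D4:**
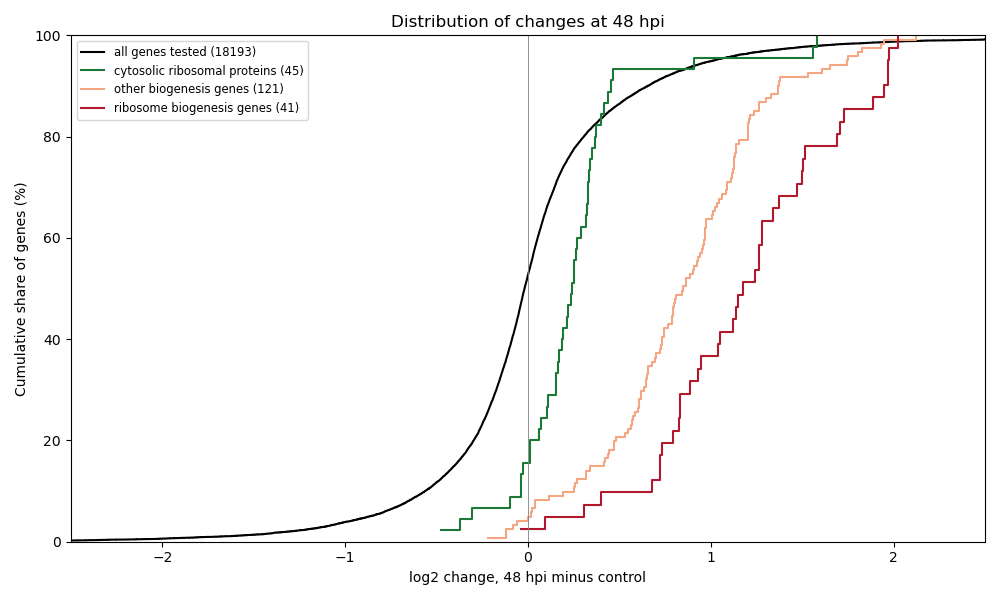
Cumulative share of genes (%) by log2 change (48 hpi minus control) for the 41 ribosome biogenesis genes, 121 other biogenesis genes, 45 cytosolic ribosomal protein genes and all 18193 genes tested; a few genes of the last lie beyond the axis. The curves cross the middle of the vertical axis at 1.18, 0.85, 0.24 and -0.02.

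**Figure D5:**
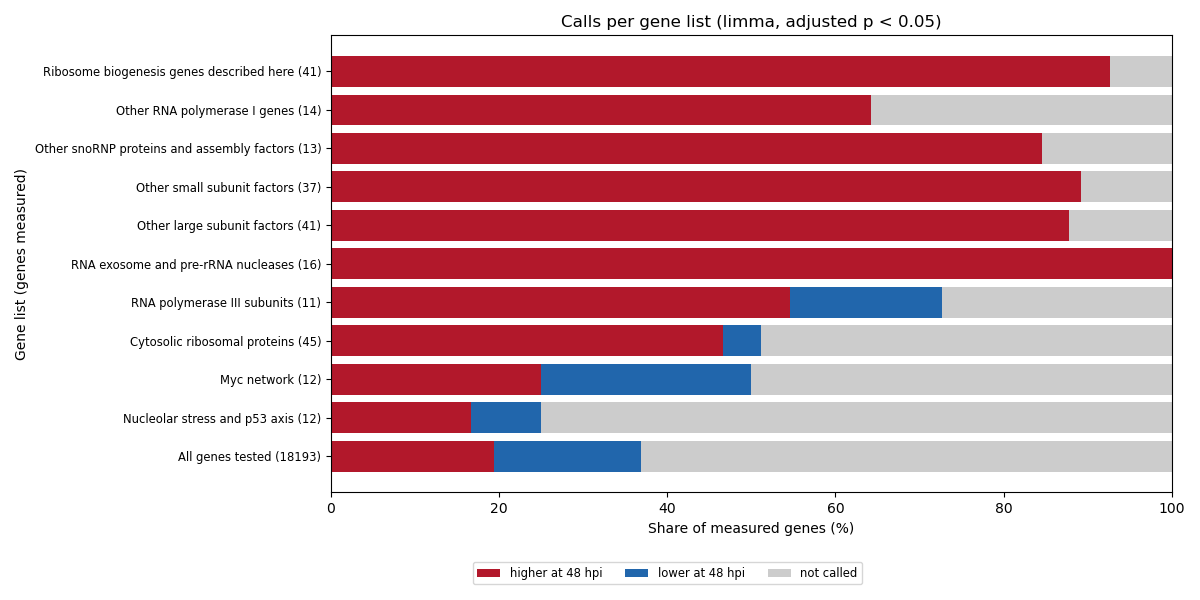
Share of measured genes (%) called higher (red), lower (blue) or not called (grey) at 48 hpi in each gene list, with the number of genes measured in brackets. Blue is missing from the ribosome biogenesis genes and the other biogenesis lists above RNA polymerase III.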

How the data were processed

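The authors normalized the Affymetrix Mouse Genome arrays by RMA and deposited log2 values, which run from 2.01 to 14.6. The submitters' processing notes name Partek 6.5 and Affymetrix Expression Console 1.1. Detection calls were not used here, so the background level came from receptor genes taken as silent in trachea. RMA assumes that arrays share an overall distribution, so levels are relative to the other genes of an array. Samples were grouped by their labels, and the mesenchymal samples were not analysed here.

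Probe sets were named by the platform annotation: 34958 of 45101 have 1 symbol, 932 several and 9211 none, and 64 control probe sets were left out. The brightest probe set over the 6 arrays stood for a gene. Testing used lmFit and eBayes of limma 3.58.1 (R 4.3.3, no block, Benjamini-Hochberg adjustment over 18193 genes or 34945 probe sets). The study's analysis of variance over both tissues could not be repeated with epithelium alone. The test was checked on simulated data. Values in all pools are given for Myc, for the 3 largest called changes in each larger role group, for smaller groups whole and for members not called. Of the other pathway and marker lists, up to 2 rises and 2 falls, the largest called, could be named. Members and lists were chosen with earlier results of these data known. Alternatives covered the variance model, the methods' t-test, scaling, filters, the choice of probe set, a replicate block, array weights, thresholds and leaving out each array. With 3 arrays per group the number of arrays limits the precision, and motif searches and plots were made in Python 3.11.15 with matplotlib 3.10.9.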

Additional observations from a re-analysis of the deposited data

How the results depend on the processing

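Between 37 and 39 members were called higher under every alternative at the same threshold, 37 at an adjusted p below 0.01, and 0 were called lower in any. Probe sets that can match related sequences, when left out, took 1 member with them, and 37 of the remaining 40 were higher. Of 778 changes of single members under the 19 alternatives of test, scaling, probe set and arrays, 766 kept their direction and side of the threshold. Myc turned to -0.0029 with repeated quantile normalization, and leaving out 1 array moved it between -0.13 and 0.40. Imp3 turned to 0.045 with a common median and to 0.31 with equal hybridization controls. It was -0.16 with repeated quantile normalization and lay between -0.11 and 0.011 with 1 array left out. Polr1a passed the threshold under 5 alternatives: 0.39 with a common median, 0.65 with equal hybridization controls, 0.63 with its most variable probe set, 0.33 with array weights and 0.40 without control replicate 1. Noc3l lost its call in the methods' t-test (adjusted p = 0.0804 after Benjamini-Hochberg) and Gnl2 with the mean of its probe sets (0.19, adjusted p = 0.0818 in limma). The count of lower probe sets went from 1 to 0 with equal hybridization controls, with a filter on dim probe sets and with a replicate block, and ranged from 0 to 2 with 1 array left out, which was chosen after seeing the data: 2 without control replicate 1 and 0 without any other array.

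Shifting the arrays moved members and all genes alike and so changed the share of calls in each direction. The share of calls that were higher among all genes was 52.5%, and 63.4% at a common median, 84.0% at equal hybridization controls and 45.5% after repeated quantile normalization. Setting a common median or equal hybridization controls shifts every gene alike. The member median minus that of all genes therefore had to stay at 1.20. Repeated quantile normalization, which does not shift every gene alike, gave 1.09. The choice of probe set also moved the size of the rise. With the mean of each gene's probe sets the member median was 0.89 and that of all genes -0.01. With the most variable probe set they were 1.24 and -0.02. With a replicate block 38 members were higher. Same-numbered arrays deviated together weakly (correlations 0.03 to 0.16, and 5 of 6 arrays correlated best with their own number), so numbers were treated as names. Low levels, such as the control levels of Rrp12 and Polr1e, limit how exactly a fold is known.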
